A study of Mus musculus with 30 samples.

Results

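The comparison described here is that of MGT cells prepared from 18-month-old mice with MGT cells prepared from 3-month-old mice, 4 of the 30 samples of the series. MGT stands for Mef2c, Gata4 and Tbx5, 3 cardiac transcription factors that convert fibroblasts into cardiomyocyte-like cells when they are delivered together. The 4 samples were chosen by their labels alone: 2 at 18 months and 2 at 3 months, all primary wild-type cardiac fibroblasts from heart that carried the MGT treatment and were labelled day 3. The column names of the 18-month MGT libraries give 15 months, and the age printed here is that of the sample labels. LacZ cells of 18 months (2 libraries) and 3 months (2 libraries), wild-type cardiac fibroblasts whose treatment label is LacZ, at day 3, gave a second age contrast. Their titles carry MGT beside LacZ; the treatment label was followed here, and the levels of the 3 factors in these libraries are given below. Cardiac fibroblasts with neither treatment were compared at 12 and 24 months with 3 months (2 libraries each, day 3, wild type). The 12-month fibroblast columns are named for 13 months. Sex, strain and the number of hearts behind a library were not given in the sources used here, and nothing in the labels says that replicates came from separate animals. The p-values therefore measure only the spread between these samples, which may be technical.

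Cardiac fibroblasts make the collagens and other matrix proteins of the heart. They also sense injury and infection, release cytokines and chemokines, and take on a contractile, smooth muscle-like state when they become myofibroblasts. Type I interferon signalling runs from its receptor to a transcription factor complex that binds a short promoter element and switches on a common set of antiviral genes. Cholesterol synthesis is set by SREBP2, which is released when membrane sterol is low and binds the promoters of enzymes of the pathway.

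Total counts were 15999399 and 16099637 in the 18-month MGT libraries, against 16105820 and 14489836 in the 3-month MGT libraries. Levels are given as CPM, a gene's counts scaled to the size of its library with the trimmed mean of M-values over the genes tested, and are not divided by gene length. A gene is said to have risen or fallen where edgeR's quasi-likelihood test gave a Benjamini-Hochberg adjusted p under 0.05 over all 16368 genes tested. The replicates of 3-month LacZ cells stood further apart than those of the other groups compared. Their counts gave a chi-square over its degrees of freedom of 20.8, beside 7.29 in 18-month MGT cells, 3.09 in 3-month MGT cells and 4.17 in 18-month LacZ cells. In bulk RNA, fewer cells of a type and less RNA per cell cannot be told apart.

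The 3 factors were present in all 4 MGT libraries. Tbx5 had 243 and 298 CPM in 18-month cells, against 289 and 278 CPM in 3-month cells, and was between 0.463 and 1.22 CPM in the 4 LacZ libraries. Mef2c had 151 and 179.9 CPM in 18-month cells, against 214 and 200.1 CPM in 3-month cells, and 8.05 and 10.4 CPM in 18-month LacZ cells, against 10.1 and 8.97 CPM in 3-month LacZ cells. Gata4 had 216 and 249.7 CPM in 18-month cells, against 239 and 235 CPM in 3-month cells, and 112 and 112 CPM in 18-month LacZ cells, against 123 and 117 CPM in 3-month LacZ cells. Tbx5 (log2 fold change -0.07, adjusted p = 0.73) and Gata4 (-0.02, adjusted p = 0.906) did not pass the test, and their groups overlapped. The difference of Mef2c passed (log2 fold change -0.33 ± 0.11 SE, edgeR adjusted p = 0.0383), with no overlap between the groups, and the call was lost without 18-month replicate 1 and without either 3-month replicate. Reads of the delivered factors and of the endogenous genes cannot be told apart in these counts.

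Fibroblast markers were abundant at both ages. The summed level of 12 cardiac fibroblast markers was 14410 and 15770 CPM in 18-month cells, against 17060 and 17790 CPM in 3-month cells; 6 of the 12 fell and 1 rose, and 3 fell and none rose without 3-month replicate 2. Of 22 genes tested of a wider list of fibroblast surface markers and transcription factors, 9 fell and 3 rose (median -0.28); 5 fell without 18-month replicate 2. Ly6a, the stem cell antigen Sca-1, had 33.1 and 28.8 CPM in 18-month cells, against 88.8 and 96.04 CPM in 3-month cells (log2 fold change -1.58 ± 0.11 SE, edgeR adjusted p = 6.07e-11). Pdgfra, a PDGF receptor that marks cardiac fibroblasts, had 448 and 457 CPM in 18-month cells, against 589.8 and 596 CPM in 3-month cells (-0.39 ± 0.09 SE, adjusted p = 0.00217), and Cd34, a surface sialomucin, had 101 and 117 CPM in 18-month cells, against 59.2 and 58.1 CPM in 3-month cells (0.90 ± 0.10 SE, adjusted p = 1.38e-07). The groups of these 3 genes did not overlap, as in 57.8% of all genes tested. Among all genes tested, 8.12% rose and 9.29% fell.

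Xist, the X-inactivation transcript, was at or under 0.414 CPM in the 4 libraries. The Y-linked genes Ddx3y (154 and 129 CPM at 18 months, against 141 and 133 CPM at 3 months), Uty and Kdm5d were present in all and did not pass the test. Y-linked Eif2s3y rose (0.35 ± 0.10 SE, adjusted p = 0.0118), a call lost without 18-month replicate 1 and without 3-month replicate 1.

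Across the transcriptome, 2850 of 16368 genes (17.4%) passed the test: 1329 (8.12%) were higher and 1521 (9.29%) lower at 18 months. Counts of list members called in MGT cells are to be read beside these shares. The median log2 fold change over all genes was -0.01, that of the genes called higher 0.48 and that of the genes called lower -0.61. The libraries of the 2 ages did not overlap in 9455 genes (57.8%), higher at 18 months in 27.9% and lower in 29.9% of all genes tested. At 2-fold or more, 213 genes rose (1.3%) and 438 fell (2.68%); at 4-fold or more, 55 rose and 136 fell. Between 1367 and 2262 genes were called when 1 of the 4 libraries was left out, the fewest without 3-month replicate 2; 1589 were called without 18-month replicate 2 and 1763 without 3-month replicate 1. Of the 2850 genes, 46.8% to 69.6% kept their call and direction in those fits, and no log2 fold change of a called gene changed sign.

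**Figure D1:**
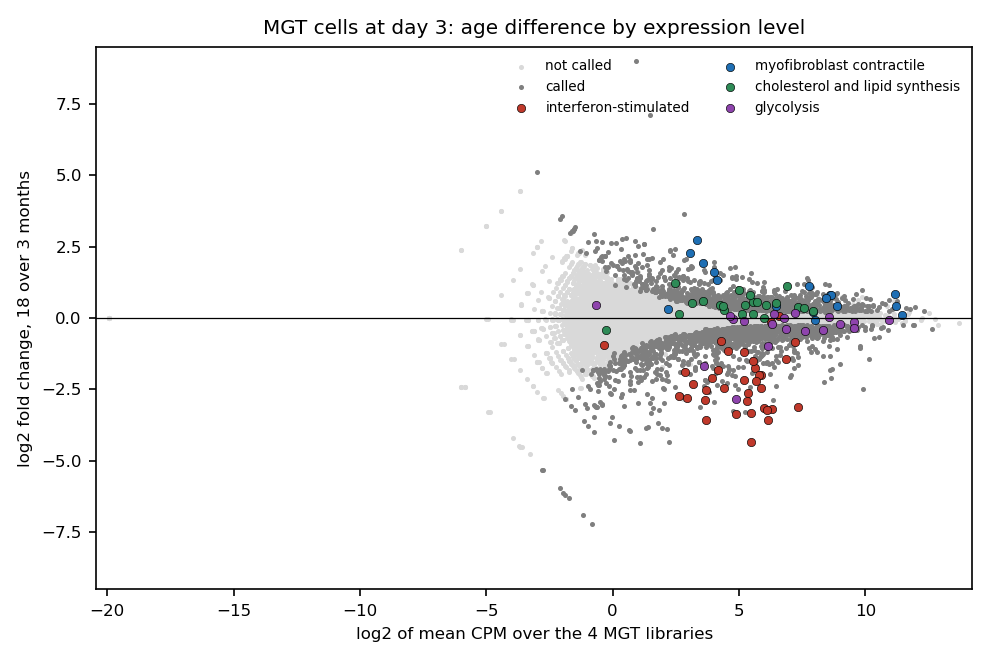
Each point is a gene tested in MGT cells: the x axis is the log2 of its mean CPM over the 4 MGT libraries, and the y axis its log2 fold change, 18 over 3 months, with called genes in dark grey and members of 4 gene lists in colour. The interferon-stimulated genes (red) lie mostly between -1 and -4.34, whereas the myofibroblast contractile (blue) and cholesterol (green) members lie mostly above 0.

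**Figure D2:**
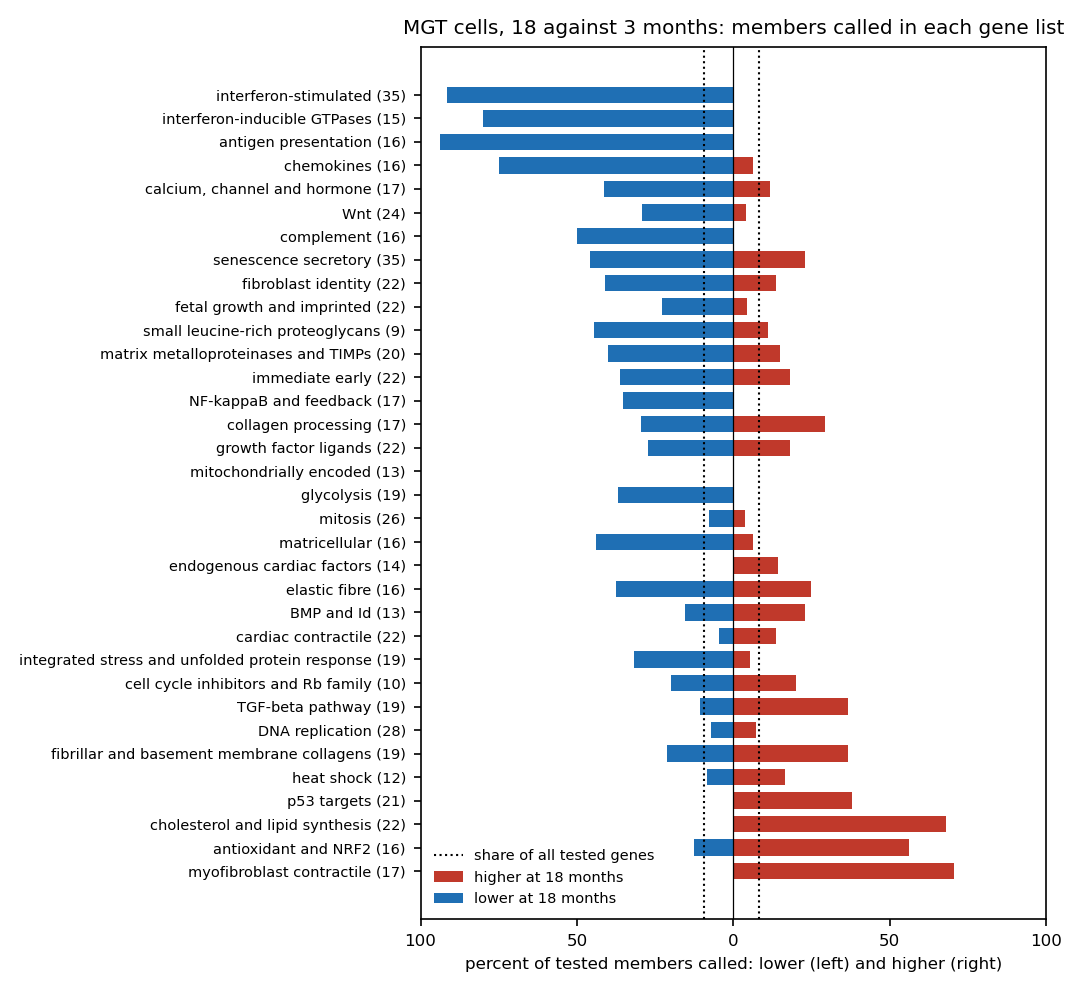
For each pathway list with 7 or more members tested (number tested in brackets), bars give the percent of tested members called higher (right, red) or lower (left, blue) in 18-month MGT cells, and dotted lines the same share among all genes tested, 8.12% and 9.29%. Lists are sorted by their median log2 fold change, with interferon-stimulated genes at one end and myofibroblast contractile genes at the other.

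Interferon-stimulated genes were lower at 18 months almost without exception. All 35 of the list were tested; 32 fell and none rose, beside 9.29% of all genes that fell, and the median log2 fold change was -2.33, beside -0.01 over all genes. Leaving out any 1 of the 4 libraries left 31 or 32 called. Their summed level was 680 and 714 CPM in 18-month cells, against 2599 and 2557 CPM in 3-month cells.

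Where RefSeq gives a promoter, several of these genes carry the core of the interferon-stimulated response element near the gene start. The motif searched was GAAA, any 2 bases and GAAA again, on both strands of the 250 bases before each annotated start, and copies may overlap. It was found in 11 of the 24 members with a promoter in the table (45.8%), and in 936 of 27025 genes with one (3.46%). The match is a description of the letters and says nothing of binding in these cells. The 250 bases before the start of 3 members with more than 1 copy are printed from RefSeq (build GRCm38.p6), 5′ to 3′ on the strand of the gene, with the copies in capitals. Isg15 lies on the minus strand (chr4:156200819-156201068), Ifit1 on the plus strand (chr19:34640639-34640888, with its copies on the opposite strand) and Bst2 on the minus strand (chr8:71537473-71537722).
Isg15: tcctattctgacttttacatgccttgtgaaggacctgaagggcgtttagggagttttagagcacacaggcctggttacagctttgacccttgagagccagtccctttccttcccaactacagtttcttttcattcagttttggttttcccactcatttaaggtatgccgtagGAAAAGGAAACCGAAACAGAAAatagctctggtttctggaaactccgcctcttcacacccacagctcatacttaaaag
Ifit1: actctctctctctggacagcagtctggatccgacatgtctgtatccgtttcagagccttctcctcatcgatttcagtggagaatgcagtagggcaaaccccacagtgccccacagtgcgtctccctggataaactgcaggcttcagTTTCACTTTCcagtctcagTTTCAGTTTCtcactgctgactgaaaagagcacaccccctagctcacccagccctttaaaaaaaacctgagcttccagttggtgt
Bst2: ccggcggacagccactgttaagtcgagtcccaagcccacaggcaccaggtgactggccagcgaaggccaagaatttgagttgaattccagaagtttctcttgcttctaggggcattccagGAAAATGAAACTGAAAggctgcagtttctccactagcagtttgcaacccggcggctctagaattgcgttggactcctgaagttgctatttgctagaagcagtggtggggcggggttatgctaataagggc
In Isg15, 3 overlapping copies run together; in Ifit1 and Bst2 there are 2 each. Irf7 and Ifi44, which fell further than these genes, hold no copy in the same window.

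The genes with those promoters all fell. Isg15, a ubiquitin-like protein that is joined to other proteins during an antiviral response, had 13.2 and 18.3 CPM in 18-month cells, against 142 and 141 CPM in 3-month cells (log2 fold change -3.17 ± 0.19 SE, edgeR adjusted p = 1.06e-06). Ifit1, which binds foreign RNA caps, had 12.7 and 12.6 CPM in 18-month cells, against 112 and 114 CPM in 3-month cells (-3.16 ± 0.37 SE, adjusted p = 0.0015). Bst2, which tethers budding virus particles to the cell, had 31.9 and 34.9 CPM in 18-month cells, against 311 and 271 CPM in 3-month cells (-3.12 ± 0.12 SE, adjusted p = 1.59e-14). The 2 libraries of each age lay close together in all 3 genes and far from those of the other age.

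The regulators of the response fell with their targets. Irf7, the transcription factor that amplifies interferon production, had 9.04 and 12.9 CPM in 18-month cells, against 143 and 118 CPM in 3-month cells (-3.58 ± 0.26 SE, adjusted p = 4.24e-05). Stat2 and Irf9, parts of the complex that interferon activates, fell by 1.98 and 1.19 on the log2 scale. No group of these genes overlapped with the other.

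Sensors and effectors behaved alike in direction and differed in size. Ifi44 showed the largest fall of the list, with 3.58 and 4.75 CPM in 18-month cells, against 86.6 and 81.9 CPM in 3-month cells (-4.34 ± 0.19 SE, adjusted p = 1.88e-10). The RNA-activated synthetases Oas2 (-3.56) and Oas1a (-2.46), and their relative Oasl2 (-3.23), fell on the log2 scale. So did Zbp1 (-3.34), a sensor of Z-form nucleic acid, Usp18 (-2.92), which removes ISG15 from proteins, and Ddx60 (-2.85), a helicase. The RNA sensors Ddx58 (RIG-I), Dhx58 and the nucleic acid sensor Ifi204 also fell. The 3 members that did not pass were Ifit2 (76.6 and 70.2 CPM at 18 months, against 81.7 and 78.04 CPM at 3 months; adjusted p = 0.457), Ifi27 (96.1 and 102 CPM at 18 months, against 89.4 and 98.2 CPM at 3 months; adjusted p = 0.698) and Mx1, which was at or under 1.18 CPM in all 4 libraries.

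Interferon-inducible GTPases, which attack the vacuoles of intracellular parasites, followed. Of 15 tested members (median -1.95), 12 fell (80%) and none rose, beside 9.29% of all genes that fell. Gbp3 had 6.65 and 7.38 CPM in 18-month cells, against 70.8 and 66.2 CPM in 3-month cells (log2 fold change -3.29 ± 0.20 SE, edgeR adjusted p = 1.49e-07). Irgm1 had 48.01 and 50.6 CPM in 18-month cells, against 205 and 209 CPM in 3-month cells (-2.07 ± 0.18 SE, adjusted p = 2.46e-05), and Igtp had 5.84 and 5.81 CPM in 18-month cells, against 28.8 and 30.1 CPM in 3-month cells (-2.34 ± 0.20 SE, adjusted p = 3.94e-07). The groups did not overlap in any of the 3, and 9 to 10 members fell when 1 library was left out. Members of this family, and the Ifit, Oas and H2 genes, have close relatives in the genome, so reads shared between copies may be counted for one or lost, and single values are uncertain to that extent.

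Genes of antigen presentation, most of them for class I molecules, fell too, by less. Among all genes tested, 9.29% fell. Of 16 tested members, 15 fell and none rose, with a median of -0.98; 12 or 13 fell when 1 library was left out. H2-K1, a class I heavy chain, had 157 and 172 CPM in 18-month cells, against 359 and 342 CPM in 3-month cells (log2 fold change -1.09 ± 0.10 SE, edgeR adjusted p = 4.46e-08). B2m, the light chain shared by all class I molecules, had 625 and 538 CPM in 18-month cells, against 1240 and 1180 CPM in 3-month cells (-1.06 ± 0.10 SE, adjusted p = 2.48e-08). Psmb8, a subunit of the immunoproteasome, had 6.34 and 7.81 CPM in 18-month cells, against 28.1 and 25.5 CPM in 3-month cells (-1.92 ± 0.16 SE, adjusted p = 7.20e-09). In each of these genes both 18-month libraries were below both 3-month libraries. The peptide transporter Tap1 (-0.70), the chaperone Tapbp (-0.92) and Nlrc5 (-0.98), the activator of class I genes, fell on the log2 scale; the call of Nlrc5 was lost when any 1 of the 4 libraries was left out. Cd74, the class II invariant chain of antigen-presenting cells, was at or under 1.5 CPM in every library and did not pass.

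**Figure D3:**
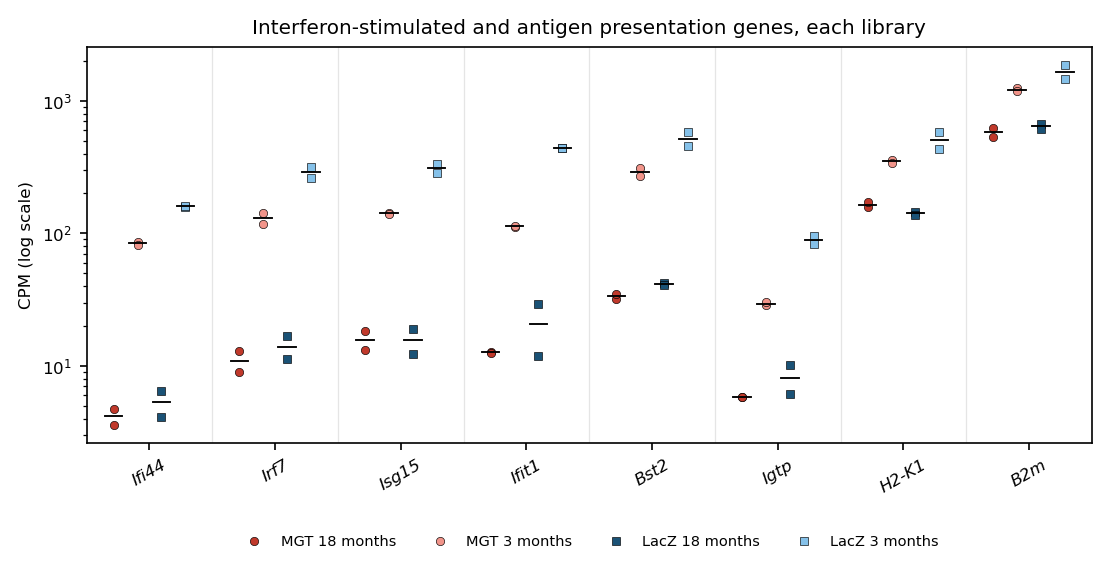
Points give the CPM (log scale) of 6 interferon-induced genes and 2 class I genes in each library, from left to right MGT at 18 and 3 months (circles) and LacZ at 18 and 3 months (squares), with a bar at the mean of each pair. In every gene both 18-month MGT libraries lie below both 3-month MGT libraries, as do the 18-month LacZ libraries below the 3-month ones.

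Macrophages also express interferon-stimulated and class I genes. The summed level of 20 macrophage markers was 581 and 489 CPM in 18-month cells, against 553 and 561 CPM in 3-month cells. Of the 17 tested, 1 rose (Laptm5) and 4 fell, beside 8.12% and 9.29% of all genes. The median log2 fold change was -0.10. When 1 library was left out, 1 or 2 fell and none rose. The part of macrophages in the lists above was not tested. Lyz2, macrophage lysozyme, had 319 and 251 CPM in 18-month cells, against 295 and 309 CPM in 3-month cells. The Fc receptor Fcgr1 (1.57 and 1.06 CPM at 18 months, against 3.41 and 3.65 CPM at 3 months) and the endotoxin co-receptor Cd14 (6.09 and 8.19 CPM at 18 months, against 12.95 and 15.99 CPM at 3 months) fell, at -1.42 and -1.02 on the log2 scale; the call of Fcgr1 was lost without 18-month replicate 2.

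Of the genes outside the interferon lists, 4 that encode secreted proteins and that the rule for named genes picked are given next. Lcn2, lipocalin 2, which withholds iron from bacteria, had 28.7 and 28.4 CPM in 18-month cells, against 144 and 152 CPM in 3-month cells (log2 fold change -2.37 ± 0.09 SE, edgeR adjusted p = 3.20e-15). Lgals3bp, a secreted glycoprotein, had 146 and 162 CPM in 18-month cells, against 668 and 637 CPM in 3-month cells (-2.09 ± 0.09 SE, adjusted p = 1.87e-14). Hp, haptoglobin, which binds free haemoglobin, had 19.1 and 19.8 CPM in 18-month cells, against 118 and 167 CPM in 3-month cells (-2.87 ± 0.15 SE, adjusted p = 8.58e-10). Clu, clusterin, a secreted chaperone, had 289 and 293 CPM at 18 months, against 1489 and 1787 CPM at 3 months (-2.49 ± 0.11 SE, adjusted p = 1.13e-12), among the largest losses in CPM of any gene. The highest 18-month library was far below the lowest 3-month library in all 4 genes. The rule took its largest falls in fold only from genes without overlap between the ages. Of all genes tested, 57.8% had no overlap.

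Of the 16 complement genes tested (median -0.33), 8 fell (50%) and none rose, beside 9.29% and 8.12% of all genes tested. Serping1, the inhibitor of the first component, had 172 and 194 CPM in 18-month cells, against 439.7 and 473 CPM in 3-month cells (log2 fold change -1.32 ± 0.09 SE, edgeR adjusted p = 1.51e-10). C4b, the fourth component, had 4.08 and 3.88 CPM in 18-month cells, against 11.6 and 11.8 CPM in 3-month cells (-1.55, adjusted p = 4.02e-06). C3, the central component, had 686 and 741 CPM in 18-month cells, against 667 and 715 CPM in 3-month cells, and did not pass (adjusted p = 0.824). The count of 8 was 5 without 18-month replicate 1 or 3-month replicate 1, and 4 without 18-month replicate 2 or 3-month replicate 2.

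Of 16 chemokine genes tested, 12 fell, 1 rose and 3 did not pass the test (median -0.80); 6 fell without 18-month replicate 1 or 3-month replicate 2. Cxcl1, a neutrophil attractant, had 166 and 169 CPM in 18-month cells, against 366 and 402 CPM in 3-month cells (log2 fold change -1.20 ± 0.11 SE, edgeR adjusted p = 2.30e-08). Ccl2, a monocyte attractant, had 603 and 569.6 CPM in 18-month cells, against 1133 and 1201 CPM in 3-month cells (-0.99 ± 0.08 SE, adjusted p = 1.97e-09). Cxcl12, which retains blood progenitors in marrow and is made by fibroblasts, had 150 and 136 CPM in 18-month cells, against 273 and 313 CPM in 3-month cells (-1.03 ± 0.10 SE, adjusted p = 2.05e-08). Cxcl14 was the gene that rose, with 24.03 and 21.6 CPM at 18 months, against 12.5 and 15.1 CPM at 3 months (0.73 ± 0.16 SE, adjusted p = 0.00223), and its call was lost without 3-month replicate 1. None of these groups overlapped. The 12 chemokine genes that fell were 75% of those tested, beside 9.29% of all genes, and 6.25% rose, beside 8.12%.

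The 35 genes of the senescence-associated secretory list went both ways, 8 higher and 16 lower (median -0.32). Among all genes tested, 8.12% were higher and 9.29% lower. Il6, a cytokine that signals through gp130, had 181 and 160.1 CPM in 18-month cells, against 578 and 629.5 CPM in 3-month cells (log2 fold change -1.83 ± 0.14 SE, edgeR adjusted p = 1.20e-06). Il11, of the same receptor family, had 15.5 and 19.1 CPM in 18-month cells, against 41.3 and 53.3 CPM in 3-month cells (-1.45 ± 0.17 SE, adjusted p = 1.19e-06), and Hgf, hepatocyte growth factor, had 54.6 and 45.4 CPM in 18-month cells, against 119 and 136 CPM in 3-month cells (-1.35 ± 0.16 SE, adjusted p = 4.77e-05). Each of the 3 was more than 2-fold lower in every 18-month library than in any 3-month library. Csf3, granulocyte colony-stimulating factor, had the lowest log2 fold change of the list, -3.67, and was at or under 0.753 CPM at 18 months. Among those that rose, Igfbp2, a carrier of insulin-like growth factors, had 34.5 and 42.9 CPM in 18-month cells, against 10.9 and 11.9 CPM in 3-month cells (1.77 ± 0.14 SE, adjusted p = 5.17e-10). Plau, the urokinase protease, had 95.01 and 84.3 CPM in 18-month cells, against 39.4 and 35.2 CPM in 3-month cells (1.26 ± 0.10 SE, adjusted p = 1.31e-09), and Gdf15, a stress-induced cytokine, had 38.3 and 45.3 CPM in 18-month cells, against 22 and 19.7 CPM in 3-month cells (1.002 ± 0.14 SE, adjusted p = 2.46e-05). The 8 that rose were 5 without either 3-month replicate.

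Inhibitors and targets of NF-kappaB were lower in part: 6 of 17 tested fell and none rose (median -0.19), beside 9.29% and 8.12% of all genes. Sod2, mitochondrial superoxide dismutase, had 98.5 and 82.3 CPM in 18-month cells, against 185 and 209 CPM in 3-month cells (log2 fold change -1.12 ± 0.10 SE, edgeR adjusted p = 4.30e-09). The inhibitor Nfkbia (-0.47 ± 0.09 SE, adjusted p = 0.000724) and its relative Nfkbiz (-0.48 ± 0.08 SE, adjusted p = 8.01e-05) fell by less. The frame of the kappaB site, GGG, any 5 bases and CC on either strand, was in the promoters of 11 of 13 members found in the table (84.6%) and of 13148 of 27025 genes (48.7%). Immediate early genes, switched on within minutes of a stimulus, were 4 higher and 8 lower of 22 (median -0.21), beside the same shares. The AP-1 motif TGANTCA was in 0 of 17 of their promoters found in the table, beside 2113 of 27025 genes (7.82%). Egr2 had 40.98 and 40 CPM in 18-month cells, against 56.6 and 57.7 CPM in 3-month cells (-0.50 ± 0.09 SE, adjusted p = 0.000393), and Jun had 78.7 and 87.9 CPM in 18-month cells, against 59.7 and 62.4 CPM in 3-month cells (0.45 ± 0.09 SE, adjusted p = 0.00127). The 8 that fell were 5 without either 3-month replicate and 3 without 18-month replicate 1, and the 4 that rose were 2 without 3-month replicate 1.

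Nr4a3, an orphan nuclear receptor named in the labels of other samples of the series, had 22.6 and 32.1 CPM in 18-month cells, against 37.6 and 44.6 CPM in 3-month cells (log2 fold change -0.59 ± 0.16 SE, edgeR adjusted p = 0.0137). The groups of Nr4a3 did not overlap, and the call was lost without 18-month replicate 1 and without 3-month replicate 2. Its relative Nr4a1 had 162 and 194 CPM in 18-month cells, against 244 and 285 CPM in 3-month cells (-0.57 ± 0.16 SE, adjusted p = 0.0296), a call lost without either 18-month replicate and without 3-month replicate 2. Nr4a2 had 12.2 and 15.8 CPM in 18-month cells, against 21.9 and 28.8 CPM in 3-month cells, and did not pass (adjusted p = 0.0572).

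Contractile genes of smooth muscle and myofibroblasts rose. Of 17 tested, 12 were higher and none lower, beside 8.12% of all genes that were higher, with a median of 0.81; 10 or 11 were higher when 1 library was left out. Their summed level was 11740 and 11460 CPM in 18-month cells, against 8452 and 8307 CPM in 3-month cells. The list shares members with a set of 7 smooth muscle markers, of which 5 rose (median log2 fold change 1.60). Their summed level was 412 and 444 CPM at 18 months, against 350 and 371 CPM at 3 months. Most of those counts were from Des, desmin, given below, which did not pass the test. Whether smooth muscle cells contributed was not tested.

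Serum response factor drives such genes through the CArG box. This motif was found on either strand in the promoters of 3 of the 14 members with a promoter in the table (21.4%), Cnn2, Myl9 and Vcl, and in 439 of 27025 genes (1.62%). It was searched after the values of the list had been seen. The 250 bases before the start of the 2 of these that rose are printed from RefSeq (GRCm38.p6) on the strand of the gene, with the box in capitals. Myl9 (chr2:156775214-156775463) and Cnn2 (chr10:79988350-79988599) both lie on the plus strand.
Myl9: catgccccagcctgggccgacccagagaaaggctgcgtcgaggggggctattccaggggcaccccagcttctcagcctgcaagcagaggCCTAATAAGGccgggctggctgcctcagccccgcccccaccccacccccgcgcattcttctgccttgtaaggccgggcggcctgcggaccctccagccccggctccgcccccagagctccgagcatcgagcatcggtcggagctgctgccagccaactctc
Cnn2: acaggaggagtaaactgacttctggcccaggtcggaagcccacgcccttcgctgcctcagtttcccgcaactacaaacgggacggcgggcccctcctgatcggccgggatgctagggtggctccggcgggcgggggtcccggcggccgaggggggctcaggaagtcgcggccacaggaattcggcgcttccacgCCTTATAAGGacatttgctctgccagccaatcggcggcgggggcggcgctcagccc

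The list holds myosin and actin isoforms of smooth muscle. Myh11, smooth muscle myosin heavy chain, had 19.01 and 15.9 CPM in 18-month cells, against 2.98 and 2.28 CPM in 3-month cells (log2 fold change 2.72 ± 0.22 SE, edgeR adjusted p = 9.72e-10). Actg2, gamma smooth muscle actin, had 13.3 and 14 CPM in 18-month cells, against 2.85 and 2.83 CPM in 3-month cells (2.26 ± 0.19 SE, adjusted p = 1.97e-09), and Acta2, alpha smooth muscle actin and the usual mark of a myofibroblast, had 2993 and 2858 CPM in 18-month cells, against 1627 and 1668 CPM in 3-month cells (0.83 ± 0.08 SE, adjusted p = 2.05e-08). No group overlapped with the other in these 3 genes. Actin genes are close copies of each other, so reads may be shared between them.

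It also holds regulators of contraction. Myl9, the regulatory light chain whose promoter is printed above, had 296 and 304 CPM in 18-month cells, against 137 and 141 CPM in 3-month cells (log2 fold change 1.11 ± 0.10 SE, edgeR adjusted p = 1.48e-08). Cnn1, calponin, had 25.4 and 23 CPM in 18-month cells, against 6.94 and 9.03 CPM in 3-month cells (1.60 ± 0.15 SE, adjusted p = 1.07e-08), and its relative Cnn2 had 525 and 568 CPM in 18-month cells, against 403 and 406 CPM in 3-month cells (0.43 ± 0.08 SE, adjusted p = 0.000463). Tagln (transgelin, 0.81), Tpm2 (a tropomyosin, 0.81) and Lmod1 (leiomodin, which nucleates actin filaments, 1.93) rose on the log2 scale. Outside the list, Kcnmb1, the smooth muscle subunit of the large-conductance potassium channel, had 12.99 and 13.7 CPM in 18-month cells, against 4.46 and 3.31 CPM in 3-month cells (1.77 ± 0.19 SE, adjusted p = 1.49e-07). Mrvi1, a substrate of the cGMP-dependent kinase, had 25.9 and 24.8 CPM at 18 months, against 6.14 and 6.89 CPM at 3 months (1.96 ± 0.14 SE, adjusted p = 1.62e-10). Not all members moved: Des, desmin, had 242 and 259.5 CPM in 18-month cells, against 254 and 277 CPM in 3-month cells (adjusted p = 0.624), and Vcl, vinculin, missed the threshold at 0.69 (adjusted p = 0.0515). Srf, serum response factor itself, had 83.7 and 96.4 CPM in 18-month cells, against 64.5 and 62.5 CPM in 3-month cells (0.50 ± 0.10 SE, adjusted p = 0.000516).

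Genes of cholesterol and lipid synthesis and uptake rose as well, in a larger share than the 8.12% of all genes tested that rose. This list, called the cholesterol genes here, also holds fatty acid synthesis genes such as Fasn and Acaca. Of 22 tested, 15 were higher and none lower, with a median log2 fold change of 0.45; 8 were higher without 18-month replicate 2 and 9 without 3-month replicate 2. The sterol element TCACNCCAC, on either strand, was in the promoter of 1 of the 13 members found in the table (7.69%), Hmgcs1, and of 331 of 27025 genes (1.22%); it too was searched after the values had been seen. The Hmgcs1 promoter (chr13:119690101-119690350, plus strand, GRCm38.p6, from RefSeq) is printed with the element in capitals, since the gene encodes an early synthase of the pathway and holds the only match in the list.
Hmgcs1: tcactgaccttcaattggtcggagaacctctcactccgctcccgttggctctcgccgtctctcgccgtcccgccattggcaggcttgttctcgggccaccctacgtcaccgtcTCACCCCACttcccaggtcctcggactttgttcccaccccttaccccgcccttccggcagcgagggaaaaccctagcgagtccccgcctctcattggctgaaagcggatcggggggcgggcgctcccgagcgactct

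Early and late steps were both higher. Hmgcs1 had 58.1 and 55.3 CPM in 18-month cells, against 38.6 and 38.1 CPM in 3-month cells (log2 fold change 0.56 ± 0.09 SE, edgeR adjusted p = 9.92e-05). Idi1, an isomerase of isoprenoid units, had 8.16 and 7.25 CPM in 18-month cells, against 3.66 and 2.896 CPM in 3-month cells (1.23 ± 0.21 SE, adjusted p = 9.55e-05). Both 18-month libraries were above both 3-month libraries in each. Of the later steps, Cyp51, a sterol demethylase, had 54.8 and 54.2 CPM in 18-month cells, against 31.2 and 30.9 CPM in 3-month cells (0.81 ± 0.11 SE, adjusted p = 3.08e-06). Srebf2, which encodes SREBP2, had 92.8 and 116 CPM in 18-month cells, against 72.4 and 73.4 CPM in 3-month cells (0.52 ± 0.11 SE, adjusted p = 0.00231), a call lost without 18-month replicate 2. Fasn, fatty acid synthase, had 239 and 294 CPM in 18-month cells, against 225 and 221 CPM in 3-month cells (adjusted p = 0.324), with both 18-month libraries above both 3-month libraries, and Acaca, acetyl-CoA carboxylase, had 47.4 and 51.9 CPM in 18-month cells, against 48.6 and 40.7 CPM in 3-month cells (adjusted p = 0.518). Insig1, which holds SREBP in the endoplasmic reticulum, had an adjusted p of 0.484, and none of these 3 genes passed the test.

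**Figure D4:**
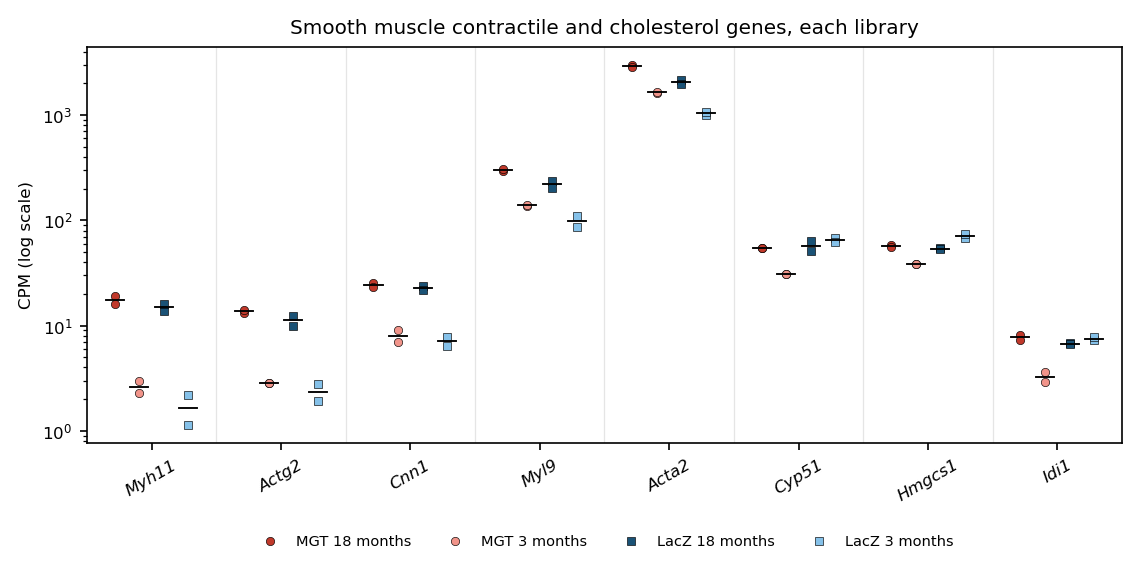
Points give the CPM (log scale) of 5 contractile and 3 cholesterol genes in each library, from left to right MGT at 18 and 3 months (circles) and LacZ at 18 and 3 months (squares), with a bar at the mean of each pair. The contractile genes are higher at 18 months in MGT and in LacZ cells, whereas the cholesterol genes are higher at 18 months in MGT cells and, in LacZ cells, overlap between the ages (Cyp51) or are lower at 18 months (Hmgcs1 and Idi1).

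Matrix genes moved in both directions. Of 19 collagen genes (median 0.10), 7 rose (36.8%) and 4 fell (21.1%), beside 8.12% and 9.29% of all genes tested. Col11a1, a minor fibrillar collagen, had 50.1 and 57.4 CPM in 18-month cells, against 211 and 218 CPM in 3-month cells (log2 fold change -1.995 ± 0.10 SE, edgeR adjusted p = 7.68e-14), and Col3a1, a major one, had 940.1 and 1015 CPM in 18-month cells, against 1495 and 1708 CPM in 3-month cells (-0.71 ± 0.10 SE, adjusted p = 1.05e-05). Col15a1, which links basement membrane to matrix, had 36.9 and 40.8 CPM in 18-month cells, against 14.5 and 13.9 CPM in 3-month cells (1.45 ± 0.13 SE, adjusted p = 3.78e-09), and Col6a3, a microfibril chain, had 38.1 and 48.9 CPM in 18-month cells, against 15.1 and 16.2 CPM in 3-month cells (1.48 ± 0.18 SE, adjusted p = 3.02e-05). Col1a1, the main chain of type I collagen, had 4083 and 5202 CPM in 18-month cells, against 4739 and 4922 CPM in 3-month cells, overlapped between the ages and did not pass (adjusted p = 0.75). Without 3-month or 18-month replicate 2 the 7 were 4, and without either 3-month replicate or 18-month replicate 1 the 4 were 2.

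Proteoglycans and matricellular proteins were mostly lower where they moved. Among all genes tested, 9.29% fell and 8.12% rose. Dcn, decorin, a small proteoglycan that binds collagen fibrils, had 669.7 and 572 CPM in 18-month cells, against 1566 and 1767 CPM in 3-month cells (log2 fold change -1.42 ± 0.09 SE, edgeR adjusted p = 3.44e-11), among the largest losses in CPM. Of 9 members of its family, 4 fell and 1 rose, Prelp, with 209.8 and 229 CPM in 18-month cells, against 113 and 135 CPM in 3-month cells (0.82 ± 0.13 SE, adjusted p = 0.000305); 2 fell without 3-month replicate 1 or 18-month replicate 2, and 1 without 3-month replicate 2. Of 16 matricellular genes, 7 fell and 1 rose. Spp1, osteopontin, had 276 and 225 CPM in 18-month cells, against 726 and 822 CPM in 3-month cells (-1.63 ± 0.13 SE, adjusted p = 2.05e-07). Cthrc1, a secreted protein of activated fibroblasts, had 77.6 and 73.3 CPM in 18-month cells, against 196 and 224 CPM in 3-month cells (-1.47 ± 0.11 SE, adjusted p = 2.72e-10), and Thbs2, thrombospondin 2, had 329.6 and 308 CPM in 18-month cells, against 520.2 and 544 CPM in 3-month cells (-0.74 ± 0.10 SE, adjusted p = 3.20e-06). Postn, periostin, had 175 and 167 CPM in 18-month cells, against 188 and 159 CPM in 3-month cells, with overlap, and did not pass.

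Elastic fibre genes split, in larger shares than the 9.29% of all genes that fell and the 8.12% that rose. Of 16, 6 fell and 4 rose; 3 fell without 3-month replicate 2, and 2 rose without either 3-month replicate or without 18-month replicate 2. The microfibril proteins Mfap2 (1.51 and 1.63 CPM at 18 months, against 6.45 and 7.58 CPM at 3 months; -2.16 ± 0.27 SE, adjusted p = 1.61e-06) and Mfap4 (2.57 and 2.44 CPM at 18 months, against 6.26 and 7.03 CPM at 3 months; -1.40 ± 0.25 SE, adjusted p = 0.000234) fell. Ltbp2, a latent TGF-beta binding protein of microfibrils, had 261 and 347 CPM in 18-month cells, against 115 and 124 CPM in 3-month cells (1.35 ± 0.12 SE, adjusted p = 3.28e-07). Fbn1, fibrillin 1, the main microfibril protein, had 1480 and 1527 CPM in 18-month cells, against 1538 and 1529 CPM in 3-month cells, and did not pass. Enzymes that process collagen were 5 higher and 5 lower of 17. The cross-linking enzyme Loxl3 had 130 and 143 CPM in 18-month cells, against 92.98 and 102 CPM in 3-month cells (0.49 ± 0.09 SE, adjusted p = 0.000207), and the prolyl hydroxylase P4ha2 had 105 and 109 CPM in 18-month cells, against 137 and 139.5 CPM in 3-month cells (-0.37 ± 0.08 SE, adjusted p = 0.00189). Those counts of 5 were 1 higher without 3-month replicate 1 and 1 lower without 3-month replicate 2. Of 20 metalloproteinases and their inhibitors, 3 rose and 8 fell; Mmp9, a gelatinase, had 5.46 and 3.69 CPM in 18-month cells, against 19.5 and 21.4 CPM in 3-month cells (-2.16 ± 0.24 SE, adjusted p = 6.01e-07). Those 8 were 2 without 18-month replicate 2, and 3 to 5 without the others.

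Antioxidant genes were mostly higher, whereas 8.12% of all genes tested rose. Of 16 tested, 9 rose and 2 fell (median 0.47); 7 or 8 rose when 1 library was left out. The transcription factor NRF2 acts on many of these genes through an antioxidant element, whose core TGACNNNGC was in the promoters of 5 of 12 members found in the table (41.7%) and of 3112 of 27025 genes (11.5%), on either strand; it was searched after the values had been seen. Gclm is printed as an example (chr3:122245307-122245556, plus strand, GRCm38.p6, from RefSeq), with the core, here on the opposite strand, in capitals.
Gclm: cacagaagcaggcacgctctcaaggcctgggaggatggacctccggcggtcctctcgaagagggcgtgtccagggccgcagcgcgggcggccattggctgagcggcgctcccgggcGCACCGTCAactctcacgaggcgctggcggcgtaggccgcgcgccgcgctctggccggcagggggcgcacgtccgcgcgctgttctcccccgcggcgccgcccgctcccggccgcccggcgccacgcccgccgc
Gclm, a subunit of the enzyme that starts glutathione synthesis, had 239.9 and 256 CPM in 18-month cells, against 135 and 128 CPM in 3-month cells (log2 fold change 0.92 ± 0.09 SE, edgeR adjusted p = 4.88e-08). Nqo1, a quinone reductase, had 282 and 314 CPM in 18-month cells, against 110.2 and 113 CPM in 3-month cells (1.42 ± 0.10 SE, adjusted p = 3.20e-10), and Hmox1, which degrades haem, had 555 and 625 CPM in 18-month cells, against 327 and 324 CPM in 3-month cells (0.86 ± 0.09 SE, adjusted p = 1.73e-07). The groups did not overlap. The 2 that fell were the metallothioneins, metal-binding proteins: Mt2 had 32.3 and 38.3 CPM in 18-month cells, against 104 and 115 CPM in 3-month cells (-1.63 ± 0.10 SE, adjusted p = 2.22e-11), and Mt1 had 56.04 and 68.7 CPM in 18-month cells, against 121 and 129.8 CPM in 3-month cells (-1.01 ± 0.10 SE, adjusted p = 5.67e-08).

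Targets of p53 rose in part, 8 of 21 and none lower (median 0.25), and 5 rose without 3-month replicate 2. Perp, a membrane protein of desmosomes and of apoptosis, had 14.4 and 16 CPM in 18-month cells, against 5.89 and 6.83 CPM in 3-month cells (log2 fold change 1.26 ± 0.16 SE, edgeR adjusted p = 2.60e-06). Ccng1, cyclin G1, had 865 and 763 CPM in 18-month cells, against 631 and 629 CPM in 3-month cells (0.37 ± 0.08 SE, adjusted p = 0.00172). Mdm2, the ligase that degrades p53, had 489 and 448 CPM in 18-month cells, against 408 and 399.6 CPM in 3-month cells, and missed the threshold (adjusted p = 0.0576). Cdkn1a, the p21 inhibitor of cyclin-dependent kinases, had 662 and 692 CPM in 18-month cells, against 546 and 526 CPM in 3-month cells (0.34 ± 0.08 SE, adjusted p = 0.00244), a call lost without 3-month replicate 2. Cdkn1b, p27 of the same family, had 27.7 and 23.2 CPM in 18-month cells, against 54.4 and 58.6 CPM in 3-month cells (-1.15 ± 0.11 SE, adjusted p = 9.93e-09). The senescence-linked inhibitors Cdkn2a (14.9 and 15.8 CPM at 18 months, against 11.5 and 13.2 CPM at 3 months) and Cdkn2b (15.7 and 19.3 CPM at 18 months, against 13.4 and 14.6 CPM at 3 months) did not pass, with adjusted p of 0.223 and 0.17. Of 26 mitosis genes 1 rose (3.85%) and 2 fell (7.69%), and of 28 DNA replication genes 2 rose and 2 fell (7.14% each), shares near or under those of all genes tested (8.12% higher and 9.29% lower). The cell cycle element core TTTGAA was in 9 of 22 promoters of mitosis genes found in the table (40.9%) and in 4934 of 27025 genes (18.3%). Mki67, a proliferation mark, had 213 and 217 CPM in 18-month cells, against 190.2 and 175 CPM in 3-month cells (adjusted p = 0.756).

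Of 22 imprinted and fetal growth genes, 1 rose and 5 fell (median -0.27); 3 fell without either 3-month replicate or 18-month replicate 2. Peg3, an imprinted zinc finger gene, had 34.1 and 35 CPM in 18-month cells, against 83.1 and 85.4 CPM in 3-month cells (log2 fold change -1.29 ± 0.11 SE, edgeR adjusted p = 9.93e-09). Igf2bp2, which binds the mRNA of insulin-like growth factor 2, had 34.8 and 37.3 CPM in 18-month cells, against 88.1 and 80.3 CPM in 3-month cells (-1.23 ± 0.11 SE, adjusted p = 3.47e-09). Peg10, an imprinted gene derived from a retrotransposon, had 101 and 109.6 CPM in 18-month cells, against 69.5 and 76.9 CPM in 3-month cells (0.53 ± 0.11 SE, adjusted p = 0.00172), a call lost without 18-month replicate 2. No groups overlapped in these 3. Of the 22 genes, 22.7% fell and 4.55% rose, beside 9.29% and 8.12% of all genes tested.

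In the TGF-beta pathway (median 0.06), 7 of 19 genes rose (36.8%) and 2 fell (10.5%), beside 8.12% and 9.29% of all genes tested. Ligands and feedback inhibitors were among those that rose. Tgfb3 had 189 and 184 CPM in 18-month cells, against 110.3 and 119 CPM in 3-month cells (log2 fold change 0.70 ± 0.10 SE, edgeR adjusted p = 6.68e-06), and Inhbb, an activin subunit, had 116 and 125 CPM in 18-month cells, against 67.4 and 73.3 CPM in 3-month cells (0.78 ± 0.10 SE, adjusted p = 2.21e-06). The inhibitor Smad6 had 109 and 116 CPM in 18-month cells, against 57.8 and 55.6 CPM in 3-month cells (0.99 ± 0.09 SE, adjusted p = 1.61e-08). Tgfbi, a secreted target of the pathway, had 6.28 and 4.31 CPM in 18-month cells, against 7.44 and 9.51 CPM in 3-month cells (-0.67 ± 0.20 SE, adjusted p = 0.0177), a call lost without replicate 2 of either age. In the bone morphogenetic protein pathway Bmp4 had 23.1 and 18.1 CPM in 18-month cells, against 9.61 and 10.3 CPM in 3-month cells (1.05 ± 0.14 SE, adjusted p = 4.14e-06), and the antagonist Grem1 had 64.9 and 60.2 CPM in 18-month cells, against 171 and 169.7 CPM in 3-month cells (-1.44 ± 0.10 SE, adjusted p = 6.17e-11). The 2 that fell in the TGF-beta list were 1 or none when 1 library was left out.

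Of 24 Wnt pathway genes, 7 fell, 1 rose and 16 did not pass the test (median -0.41); 4 fell without 3-month replicate 2, and none rose when any 1 library was left out. Sfrp1, a decoy receptor for Wnt proteins, had 66.3 and 66.5 CPM in 18-month cells, against 214 and 237 CPM in 3-month cells (log2 fold change -1.76 ± 0.18 SE, edgeR adjusted p = 0.000135). Rspo3, which strengthens Wnt signals, had 4.33 and 3.5 CPM in 18-month cells, against 18.4 and 22.4 CPM in 3-month cells (-2.38 ± 0.21 SE, adjusted p = 3.68e-09). The Wnt genes that fell were 29.2% of those tested, beside 9.29% of all genes, and 4.17% rose, beside 8.12%. Of 22 growth factor genes, 4 rose (18.2%) and 6 fell (27.3%), beside 8.12% and 9.29% of all genes tested. Kitl, stem cell factor, had 224 and 192 CPM in 18-month cells, against 133 and 119 CPM in 3-month cells (0.72 ± 0.10 SE, adjusted p = 5.29e-06). The 6 that fell were 2 without 3-month replicate 1 or 18-month replicate 2, and the 4 that rose were 2 without replicate 1 of either age.

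Of 19 glycolysis genes, 7 fell and none rose (median -0.13), and 6 or 7 fell when 1 library was left out. Among all genes tested, 9.29% fell and 8.12% rose. Slc16a3, the lactate exporter, had 7.47 and 7.06 CPM in 18-month cells, against 52.4 and 50.7 CPM in 3-month cells (log2 fold change -2.83 ± 0.13 SE, edgeR adjusted p = 2.88e-14). Pdk1, a kinase that keeps pyruvate out of mitochondria, had 5.84 and 5.69 CPM in 18-month cells, against 19.3 and 17.7 CPM in 3-month cells (-1.68 ± 0.18 SE, adjusted p = 2.47e-07), and Pfkl, a phosphofructokinase, had 45.3 and 49.7 CPM in 18-month cells, against 92.7 and 94.1 CPM in 3-month cells (-0.98 ± 0.09 SE, adjusted p = 1.48e-08). Of 19 genes of the integrated stress and unfolded protein responses, 6 fell and 1 rose, but 2 fell without 18-month replicate 2 and none without 3-month replicate 2. Manf, a secreted factor of endoplasmic reticulum stress, had 177 and 168 CPM in 18-month cells, against 219 and 246 CPM in 3-month cells (-0.43 ± 0.09 SE, adjusted p = 0.000947), a call lost without 3-month replicate 2.

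Of 22 sarcomere and contractile genes of the heart (median -0.02), 3 rose (13.6%) and 1 fell (4.55%), beside 8.12% and 9.29% of all genes tested. Myom1, which joins myosin at the M band, had 25.5 and 23.9 CPM in 18-month cells, against 9.11 and 8.48 CPM in 3-month cells (log2 fold change 1.49 ± 0.17 SE, edgeR adjusted p = 1.47e-06). Acta1, skeletal actin, had 5.96 and 6.94 CPM in 18-month cells, against 1.61 and 1.45 CPM in 3-month cells (2.07 ± 0.31 SE, adjusted p = 2.63e-05), Ldb3, a Z-disc protein, had 49.1 and 58.6 CPM in 18-month cells, against 34.7 and 35.6 CPM in 3-month cells (0.61 ± 0.12 SE, adjusted p = 0.000359), and Csrp3, another, had 7.78 and 7.19 CPM in 18-month cells, against 13.02 and 15.9 CPM in 3-month cells (-0.95 ± 0.20 SE, adjusted p = 0.00117). Genes that mark early reprogramming did not pass: Tnnt2, cardiac troponin T, had 248 and 254 CPM in 18-month cells, against 277 and 314 CPM in 3-month cells (adjusted p = 0.443), and Myl4, atrial light chain, had 403 and 455 CPM in 18-month cells, against 431 and 478 CPM in 3-month cells (adjusted p = 0.799). Both were between 2.49 and 5.39 CPM in the LacZ libraries. A p that misses the threshold does not show that these levels were equal. The MEF2 core, CTA, any 4 bases and TAG, on either strand, was in the promoters of 4 of 22 members of the list found in the table (18.2%) and of 1000 of 27025 genes (3.7%). Myh6, adult alpha myosin heavy chain, was at or under 0.126 CPM in all 4 MGT libraries.

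Of 17 genes of calcium handling, ion channels and natriuretic hormones (median -0.53), 7 fell (41.2%) and 2 rose (11.8%). Of all genes tested, 9.29% fell and 8.12% rose. Kcnj2, an inward-rectifier potassium channel, had 2.26 and 1.19 CPM in 18-month cells, against 7.38 and 11.2 CPM in 3-month cells (log2 fold change -2.42 ± 0.36 SE, edgeR adjusted p = 8.54e-05). Gja1, connexin 43 of gap junctions, had 121 and 111 CPM in 18-month cells, against 173 and 172 CPM in 3-month cells (-0.57 ± 0.09 SE, adjusted p = 5.60e-05). Nppa, atrial natriuretic peptide, had 1.26 and 1.56 CPM in 18-month cells, against 3.84 and 4.14 CPM in 3-month cells (-1.50 ± 0.34 SE, adjusted p = 0.00329), a call lost without 18-month replicate 1. Jph2, which ties the sarcoplasmic reticulum to the surface membrane, had 276 and 341 CPM in 18-month cells, against 209 and 199.5 CPM in 3-month cells (0.59 ± 0.09 SE, adjusted p = 4.28e-05). The 7 were 4 without 3-month replicate 2 or 18-month replicate 1, and 3 without 18-month replicate 2; the 2 were 1 without 18-month replicate 1.

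Beside 8.12% of all genes tested that rose and 9.29% that fell, 2 of 14 endogenous cardiac transcription factors and cofactors rose (14.3%) and none fell. These were Srf, given above, and Tbx20, a T-box factor of the developing heart, with 755 and 661 CPM in 18-month cells, against 407 and 430.2 CPM in 3-month cells (log2 fold change 0.76 ± 0.10 SE, edgeR adjusted p = 6.66e-06). Both 18-month libraries of Tbx20 were above both 3-month libraries. Ankrd1, a cofactor of the stretch response, had 1108 and 1082 CPM in 18-month cells, against 973 and 999.7 CPM in 3-month cells (adjusted p = 0.214).

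Several single genes outside these lists were among the largest rises. Galnt18, a glycosyltransferase, had 40.6 and 47.7 CPM in 18-month cells, against 11.8 and 13.9 CPM in 3-month cells (log2 fold change 1.78 ± 0.13 SE, edgeR adjusted p = 3.04e-10). Il34, a ligand of the macrophage colony-stimulating factor receptor, had 12.9 and 14.7 CPM in 18-month cells, against 4.401 and 3.52 CPM in 3-month cells (1.80 ± 0.19 SE, adjusted p = 9.42e-08), and Sema7a, a membrane-bound semaphorin, had 17.9 and 19.8 CPM in 18-month cells, against 6.45 and 5.93 CPM in 3-month cells (1.60 ± 0.17 SE, adjusted p = 9.12e-08). By absolute difference, Akap12, a kinase scaffold, with 1252 and 1217 CPM in 18-month cells, against 667 and 587 CPM in 3-month cells (0.98 ± 0.11 SE, adjusted p = 2.82e-06), Nid1, a basement membrane linker, with 2992 and 2943 CPM in 18-month cells, against 1984 and 1937 CPM in 3-month cells (0.60 ± 0.09 SE, adjusted p = 1.88e-05), and Fth1, ferritin heavy chain, with 2250 and 2521 CPM in 18-month cells, against 1523 and 1525 CPM in 3-month cells (0.65 ± 0.10 SE, adjusted p = 5.62e-05), were, with Acta2, among the 10 called genes that gained most CPM. The proteases and enzymes Pcsk6 (254 and 273 CPM in 18-month cells, against 121 and 111 CPM in 3-month cells; 1.18 ± 0.08 SE, adjusted p = 1.23e-10) and Aldh1a1, which makes retinoic acid (328 and 319.5 CPM in 18-month cells, against 159 and 146 CPM in 3-month cells; 1.09 ± 0.08 SE, adjusted p = 3.78e-10), had some of the smallest p among genes that rose. No groups overlapped in these genes. The rule for the largest rises in fold required this, and it held in 57.8% of all genes tested.

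Markers of other cell types were low or mixed. The counts called in each set are to be read beside 8.12% of all genes tested that rose and 9.29% that fell. The summed level of 14 epicardial and mesothelial markers was 86.6 and 96.9 CPM in 18-month cells, against 111 and 116 CPM in 3-month cells, and 1 of 13 tested rose and 1 fell. Of 15 endothelial markers, 14 were tested, 1 rose and 4 fell (1 fell without 18-month replicate 2), and their sum was 549 and 667 CPM at 18 months, against 536 and 540 CPM at 3 months. Most of those counts were from Eng (483 and 612 CPM at 18 months, against 419 and 440.3 CPM at 3 months), which fibroblasts also express; its call was lost without 18-month replicate 2 or 3-month replicate 1. Flt1, a VEGF receptor, had 23.7 and 17.9 CPM in 18-month cells, against 63.5 and 54.6 CPM in 3-month cells (log2 fold change -1.50 ± 0.12 SE, edgeR adjusted p = 1.31e-09), whereas Pecam1, another marker of the set, was between 3.5 and 6.32 CPM. Of 10 pericyte markers, 7 were tested, 2 rose and 2 fell, with a summed level of 296 and 336 CPM at 18 months, against 313 and 326 CPM at 3 months; Cspg4, which rose, had 59.2 and 71.8 CPM in 18-month cells, against 30.5 and 23.7 CPM in 3-month cells (1.27 ± 0.14 SE, adjusted p = 2.38e-06). All 12 lymphocyte markers were under 1 CPM in all 4 libraries, 4 of them at 0 counts, and 8 of 10 markers of adult ventricular cardiomyocytes were under 1 CPM as well. The summed level of 10 Schwann cell markers was 20.4 and 20.8 CPM at 18 months, against 23.1 and 24 CPM at 3 months, and that of 9 adipocyte markers was 104 and 86 CPM, against 92.5 and 90.7 CPM. The part of other cell types in the gene lists above was not tested.

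The age contrast in LacZ cells, from libraries that share none with the MGT contrast, called 3769 genes (23%): 1771 higher (10.8%) and 1998 lower (12.2%). Both contrasts came from the same fit. The sources used here do not say whether MGT and LacZ cells of an age came from separate preparations of fibroblasts. Of the 1329 genes higher in 18-month MGT cells, 810 were also higher in 18-month LacZ cells, 61.0% of the MGT calls and 45.7% of the LacZ calls. Of the 1521 genes lower in 18-month MGT cells, 973 were also lower in 18-month LacZ cells, 64.0% of the MGT calls and 48.7% of the LacZ calls. Calls in opposite directions were few: 13 of the genes higher and 3 of the genes lower in MGT cells.

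Testing the difference between the age effects, that in MGT cells minus that in LacZ cells, edgeR called 383 genes (2.34%): 255 higher (1.56%) and 128 lower (0.782%). Of the 255, 101 were lower with age in both cell populations and fell less in MGT cells; 96 were called in LacZ cells alone, 40 in MGT cells alone, 13 in opposite directions and 5 higher in both. Without 1 of the 8 libraries, between 117 and 552 were higher and between 41 and 474 lower.

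Interferon-stimulated genes were among those that fell less in MGT cells. In LacZ cells 34 of 35 fell and 1 rose, with a median of -3.61, beside -2.33 in MGT cells. The difference was called higher in 11 of the 35 and lower in 1, -0.84 in Ifi27; the 11 were 2 without 18-month MGT replicate 2 and as many as 23 without another library. Rsad2, viperin, had 7.03 and 8.63 CPM in 18-month and 30.1 and 25.6 CPM in 3-month MGT cells, and 4.64 and 8.65 CPM in 18-month LacZ cells, against 159.5 and 134 CPM in 3-month LacZ cells; the difference between the log2 age effects was 2.64 ± 0.38 SE (edgeR adjusted p = 0.00767), a call lost without 18-month MGT replicate 2. The 18-month levels of MGT and LacZ cells lay close together, and the 3-month level was higher in LacZ cells. Isg15 and Ifi44 did not pass this test (adjusted p = 0.0596 and 0.404). Of 16 antigen presentation genes, 9 passed, all higher; they were 5 without 18-month MGT replicate 2. H2-K1 had 145 and 138 CPM in 18-month LacZ cells, against 436 and 585 CPM in 3-month LacZ cells (difference 0.76, adjusted p = 0.00376, lost without 18-month MGT replicate 2).

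Cholesterol genes differed between the populations too: in the test of the difference, 13 of 22 were higher and none lower, with a median of 0.62. Without 18-month MGT replicate 2 they were 6. In LacZ cells 2 of the 22 rose and 4 fell. The summed level of the list was 1450 and 1605 CPM in 18-month and 1129 and 1118 CPM in 3-month MGT cells. In LacZ cells it was 1512 and 1491 CPM at 18 months and 1644 and 1374 CPM at 3 months. The 3-month MGT libraries thus had the lowest sums. Hmgcs1 had 54 and 53.4 CPM in 18-month LacZ cells, against 67.9 and 73.5 CPM in 3-month LacZ cells (difference 0.96 ± 0.13 SE, edgeR adjusted p = 0.000112). For Hmgcs1 the age effect thus ran in opposite directions, 0.56 in MGT and -0.40 in LacZ cells. Cyp51 overlapped between the ages in LacZ cells, with 63.4 and 51.6 CPM in 18-month LacZ cells, against 68.4 and 61.6 CPM in 3-month LacZ cells (difference 0.99 ± 0.15 SE, adjusted p = 0.00023). Idi1 had 6.78 and 6.66 CPM in 18-month LacZ cells, against 7.23 and 7.72 CPM in 3-month LacZ cells (difference 1.38 ± 0.28 SE, adjusted p = 0.00494, lost without 3-month MGT replicate 2).

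The contractile list was higher at 18 months in both populations. In LacZ cells 13 of 17 rose, with a median of 0.65, beside 0.81 in MGT cells. Acta2 had 2175 and 1956 CPM in 18-month LacZ cells, against 996 and 1078 CPM in 3-month LacZ cells, a log2 fold change of 0.99, and the difference, -0.17 ± 0.11 SE, did not pass (adjusted p = 0.589). Tbx20 had 549.6 and 674 CPM in 18-month LacZ cells, against 676 and 557 CPM in 3-month LacZ cells, and its difference passed at 0.77 ± 0.14 SE (adjusted p = 0.00271). Peg3 also passed, at -1.23 ± 0.17 SE (adjusted p = 0.000123), with 22.5 and 30.8 CPM in 18-month LacZ cells, against 29.99 and 25.6 CPM in 3-month LacZ cells. Ctsc, cathepsin C, had 35.02 and 31.3 CPM in 18-month cells, against 94.96 and 104 CPM in 3-month cells with MGT, and 17.4 and 18.4 CPM in 18-month LacZ cells, against 19.8 and 22.6 CPM in 3-month LacZ cells (difference -1.34 ± 0.16 SE, adjusted p = 2.75e-05).

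**Figure D5:**
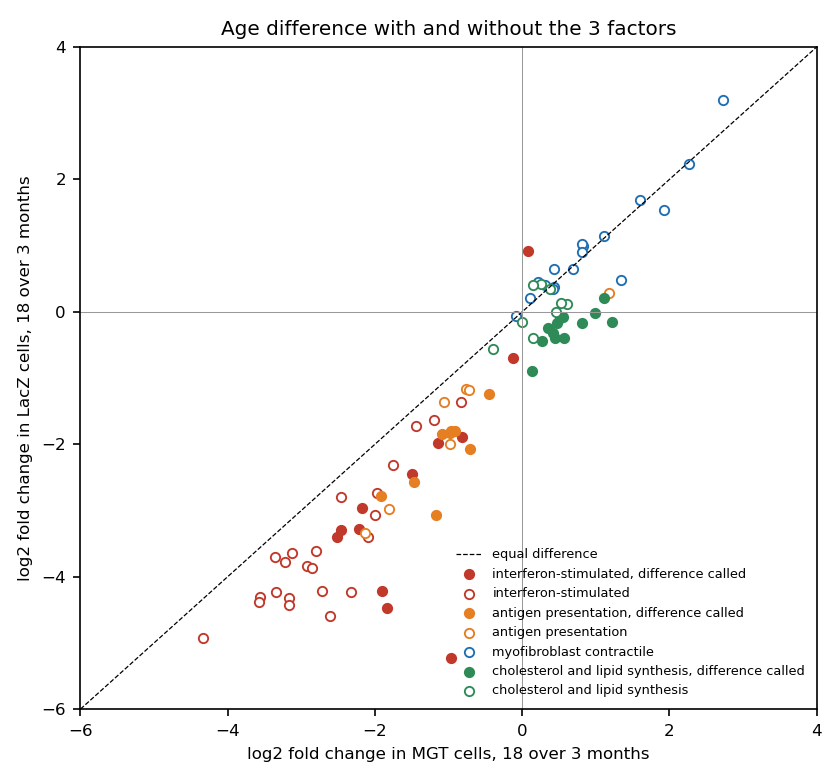
Each point is a member of 4 gene lists: the x axis is the log2 fold change, 18 over 3 months, in MGT cells and the y axis that in LacZ cells, filled where the difference between them was called, with a dashed line at equal differences. Most interferon-stimulated (red) and antigen presentation (orange) members lie below the line, lower in LacZ than in MGT cells, and the filled cholesterol members (green) lie below it at positive MGT values.

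Untreated fibroblasts gave a mixed picture. At 12 against 3 months edgeR called 4691 of 16466 genes (28.5%), 2136 higher (13%) and 2555 lower (15.5%); at 24 against 3 months it called 3017 (18.3%), 1458 higher (8.85%) and 1559 lower (9.47%). Of the 1289 genes higher in MGT cells that were tested there, 460 were higher at 12 months, 35.7% of the MGT calls and 22% of the fibroblast calls, and 208 were lower. Of the 1475 lower in MGT cells, 635 were lower at 12 months, 43.1% and 25.7%, and 202 were higher. At 24 months 300 were higher in both (23.3% and 21.3%) and 305 lower in both (20.7% and 20.4%), while 150 and 238 were called in opposite directions. The 12-month and 24-month contrasts share their 3-month libraries.

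Some of the lists gave these counts in untreated fibroblasts. Of the 35 interferon-stimulated genes, 34 fell and 1 rose at 12 months (median -1.26), and 23 fell and none rose at 24 months (median -0.30). Isg15 differed by -1.46 at 12 and -0.20 at 24 months on the log2 scale. Of the 17 contractile genes, 3 rose and 9 fell at 12 months, and 4 rose and 3 fell at 24 months; Myl9 differed by -0.62 and -0.12, against 1.11 in MGT cells. Of the 22 cholesterol genes, 1 rose and 14 fell at 12 months, and 1 rose and 11 fell at 24 months; Hmgcs1 differed by -0.69 and -0.43, against 0.56 in MGT cells. Other lists with falls in MGT cells had rises at 24 months. Of 16 chemokine genes, 9 rose and 3 fell at 12 months, and 12 rose and 1 fell at 24 months. Of 16 complement genes, 2 rose and 8 fell, and then 11 rose and none fell. Of 16 antigen presentation genes, 12 fell and none rose, and then 7 rose and none fell. Of 19 glycolysis genes, 6 rose and 4 fell, and then 17 rose and none fell. These fits come from another table of counts with other libraries and ages, and the difference from the MGT contrast was not tested.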

How the data were processed

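RNA was sequenced as paired-end reads on a HiSeq X 10; the labels name both polyA RNA and a stranded rRNA-depletion kit. The deposited values are raw counts per gene (55401 genes), which the authors made, per the submitters' processing notes, with Trimmomatic 0.36, SAMtools and featureCounts of Subread 1.5.1 on mm10. The aligner, annotation and strand setting were not given in the sources used here. Genes were kept by filterByExpr, scaled by TMM and tested with edgeR 4.0.16 (R 4.3.3; quasi-likelihood, robust) on 12 MGT and LacZ libraries together, neonatal ones included, with 1 coefficient a group; the 8 untreated fibroblast libraries had a fit of their own. Total counts ran between 14489836 and 17576309 in the MGT and LacZ libraries compared. Standard errors are the log2 fold change over the root of F. DESeq2 1.42.0, other scalings and filters, a replicate block and leaving out each library were alternatives. The script was tested on simulated counts.

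The members and gene lists were chosen with earlier results of these data known. Named genes were fixed genes, the largest called changes in fold without overlap between groups, and the largest called changes in CPM, overlapping or not. The rule also named the smallest p, the largest called differences from LacZ cells and the members of each list with the smallest p. Members that rule did not name, such as Srebf2, Il6 and those given as not passing, were added after their values were seen. Promoters are RefSeq's (GRCm38.p6, the build named mm10), matched by symbol. Some genes of the lists are counted but not reported here. Figures were drawn with matplotlib 3.10.9.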

Additional observations from a re-analysis of the deposited data

Results flagged for a closer look

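The results of this kind are genes whose age effect in MGT cells differed from that in LacZ cells by the test of the difference (edgeR adjusted p under 0.05 over 16368 genes). Values are log2 fold changes, 18 over 3 months, and each difference is the MGT value minus the LacZ value. No outlier within a group could be sought with 2 libraries a group.

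Defence and secreted genes that were lower at 18 months in both populations, and less so with MGT, were Serpina3i (-2.23 in MGT and -4.97 in LacZ cells, difference 2.73), Rsad2 (-1.83 in MGT and -4.47 in LacZ cells, difference 2.64), Hp (-2.87 in MGT and -5.13 in LacZ cells, difference 2.26), Serpina3h (-1.26 in MGT and -3.49 in LacZ cells, difference 2.23), Sp110 (-1.13 in MGT and -2.81 in LacZ cells, difference 1.69), Tap1 (-0.70 in MGT and -2.07 in LacZ cells, difference 1.36), Igtp (-2.34 in MGT and -3.48 in LacZ cells, difference 1.14), Clu (-2.49 in MGT and -3.51 in LacZ cells, difference 1.02) and H2-K1 (-1.09 in MGT and -1.85 in LacZ cells, difference 0.759). Ifit2 (-0.12 in MGT and -0.70 in LacZ cells, difference 0.575) was of the same sign, and Mx1 (-0.96 in MGT and -5.23 in LacZ cells, difference 4.27) was at or under 1.18 CPM in every MGT library. Serpina3h and Serpina3i have close relatives that may share reads. Ifi27 and C3 were near 0 with MGT: Ifi27 (0.08 in MGT and 0.92 in LacZ cells, difference -0.839) and C3 (0.05 in MGT and -0.65 in LacZ cells, difference 0.701). Matrix and TGF-beta genes were Tgfbi (-0.67 in MGT and -2.21 in LacZ cells, difference 1.54), Col3a1 (-0.71 in MGT and -1.71 in LacZ cells, difference 1.001), Prelp (0.82 in MGT and 0.01 in LacZ cells, difference 0.811), Postn (-0.02 in MGT and -0.82 in LacZ cells, difference 0.8), Col1a1 (-0.06 in MGT and -0.59 in LacZ cells, difference 0.531), Inhbb (0.78 in MGT and 0.03 in LacZ cells, difference 0.746), Tgfb3 (0.70 in MGT and 0.09 in LacZ cells, difference 0.6099), Smad6 (0.99 in MGT and 0.49 in LacZ cells, difference 0.501) and Spp1 (-1.63 in MGT and -0.61 in LacZ cells, difference -1.02).

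Cholesterol genes were Idi1 (1.23 in MGT and -0.16 in LacZ cells, difference 1.38), Insig1 (0.13 in MGT and -0.89 in LacZ cells, difference 1.02), Cyp51 (0.81 in MGT and -0.18 in LacZ cells, difference 0.988), Hmgcs1 (0.56 in MGT and -0.40 in LacZ cells, difference 0.96) and Srebf2 (0.52 in MGT and -0.09 in LacZ cells, difference 0.6098). Muscle and cardiac genes were Pdlim3 (0.51 in MGT and -2.98 in LacZ cells, difference 3.49), Tbx20 (0.76 in MGT and -0.01 in LacZ cells, difference 0.769), Ldb3 (0.61 in MGT and 1.55 in LacZ cells, difference -0.938) and Cap2 (0.20 in MGT and 1.49 in LacZ cells, difference -1.29). Imprinted genes were Peg10 (0.53 in MGT and -0.59 in LacZ cells, difference 1.12) and Peg3 (-1.29 in MGT and -0.06 in LacZ cells, difference -1.23). The other genes were Adamtsl2 (0.08 in MGT and -1.92 in LacZ cells, difference 2), Rasl11b (-0.20 in MGT and -2.01 in LacZ cells, difference 1.81), Pcsk6 (1.18 in MGT and 0.54 in LacZ cells, difference 0.6399), Nqo1 (1.42 in MGT and 1.99 in LacZ cells, difference -0.574), Klra4 (1.83 in MGT and 2.94 in LacZ cells, difference -1.11), Ctsc (-1.59 in MGT and -0.25 in LacZ cells, difference -1.34), Vgf (0.06 in MGT and 1.43 in LacZ cells, difference -1.36), Upk1b (-0.23 in MGT and 1.16 in LacZ cells, difference -1.39), C1ql3 (-0.49 in MGT and 0.91 in LacZ cells, difference -1.40), Ahrr (0.72 in MGT and 2.19 in LacZ cells, difference -1.46), Sprr2h (-0.20 in MGT and 1.29 in LacZ cells, difference -1.49) and Flt1 (-1.50 in MGT and 0.32 in LacZ cells, difference -1.83). The 2 libraries of 3-month LacZ cells stood apart from each other, with a chi-square of 20.8 over its degrees of freedom, and their part in these differences was not tested beyond leaving each out.

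Leaving out 1 library ended some of these calls. Without 18-month MGT replicate 1 the calls of Mx1, Igtp, Prelp, Tgfb3, Ifit2, Nqo1, Ldb3, Klra4 and Sprr2h were lost. Without 18-month MGT replicate 2 those of Mx1, Rsad2, Serpina3h, Igtp, Prelp, H2-K1, C3, Tgfb3, Srebf2, Ifit2, Col1a1, Smad6, Nqo1, Klra4 and C1ql3 were. Without 3-month MGT replicate 1 Igtp, Prelp, C3, Tgfb3, Srebf2, Ifit2, Col1a1, Smad6, Nqo1, Klra4 and C1ql3 lost theirs, and without 3-month MGT replicate 2 Idi1, Igtp, Srebf2, Ifit2, Col1a1, Smad6, Nqo1, Klra4 and Cap2. Without 18-month LacZ replicate 1 the lost calls were those of Serpina3h, Adamtsl2, Igtp, Prelp, C3, Tgfb3, Srebf2, Ifit2, Col1a1, Smad6, Nqo1, Ldb3, Klra4, Cap2, C1ql3, Sprr2h and Flt1, and without 18-month LacZ replicate 2 those of Srebf2, Ifit2 and Upk1b. Without 3-month LacZ replicate 1 Adamtsl2, Igtp, Srebf2, Col1a1 and Klra4 lost theirs, and without 3-month LacZ replicate 2 Igtp and Upk1b did. The others given here, such as Cyp51, Hmgcs1, Tap1, Ctsc and Peg3, kept their calls in each of these fits.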

How the results depend on the processing

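Of the 2850 genes called between 18-month and 3-month MGT cells, 85.9% to 99.1% kept their call and direction under the other scalings and filters, DESeq2, the replicate block and a fit of the compared groups alone. The pairing of replicates by number, put in the fit as a replicate block, gave 1296 higher and 1511 lower genes, beside 1329 and 1521. The correlation of the deviations of same-numbered samples was 0.02 between ages in MGT cells, -0.19 in LacZ cells, and -0.15 at 12 and 0.11 at 24 months in untreated fibroblasts. Between MGT and LacZ cells it was -0.0084 at 18 months and 0.20 at 3 months. The crossed pairing, added after seeing the data, gave 1739 higher and 1945 lower genes in LacZ cells and 2093 and 2508 at 12 months in untreated fibroblasts.

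Leaving out 1 library gave 576 to 1189 genes higher and 791 to 1073 lower in MGT cells, 982 to 2288 and 1184 to 2344 in LacZ cells, and 117 to 552 and 41 to 474 for the difference between them. In untreated fibroblasts these ranges were 1402 to 1774 and 1780 to 2131 at 12 months, and 1020 to 1225 and 1064 to 1208 at 24 months. The lone sample of a group was then assumed to vary like the other groups. The genes lower in the difference were 83 with the compared groups alone and 199 with no filter on low counts. With the compared groups alone LacZ cells gave 877 higher and 1239 lower genes. DESeq2 gave 1414 genes higher at 12 months and 978 lower at 24 months in untreated fibroblasts. The cause of these shifts was not tested.

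Signs changed only among genes named in the text, or in the rule for naming, that were not called. With upper-quartile factors Gata4 was 0.0035, Kdm5d 0.0011 and Postn 0.0037. When each library was left out in turn, the log2 fold change of Adamtsl2 ranged from -0.12 to 0.26, with -0.059 between, and that of C3 from -0.017 to 0.11, with -0.015 between. That of Postn ranged from -0.14 to 0.089, with 0.0048 between, and that of Vgf from -0.15 to 0.26, with -0.093 between. The ranges were -0.0035 to 0.41 for Cap2, -0.25 to 0.12 for Col1a1, -0.069 to 0.16 for Ddx3y, -0.058 to 0.0072 for Fbn1, -0.14 to 0.091 for Gata4, -0.12 to 0.070 for Kdm5d, -0.25 to 0.071 for Lyz2, -0.18 to 0.017 for Myl4, -0.23 to 0.0076 for Nnt, -0.23 to 0.083 for Tbx5 and -0.064 to 0.13 for Uty. With 2 libraries a group, small differences in genes of few counts were not detectable.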
